A study of Mus musculus with 416 samples.

Results

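Morula blastomeres from mouse embryos injected with an siRNA against Rif1 (siRif1) were compared with morula blastomeres from embryos injected with a control siRNA (siCont), by the replication state of the genome in single cells. The comparison used every cell with a column in the deposited morula tables, 45 siRif1 cells and 44 siCont cells, of 299 such cells in the series. The labels name 72 cells for each of the 2 groups. Both groups had the genotype (C57BL/6J xCBA) x DBA/2J. Zygotes received 20 µM siRif1 or 20 µM siControl 17 to 18 hours after hCG, the hormone that times ovulation, and were cultured in KSOM medium to the morula stage. Embryos were collected at several times across S phase and taken apart, and the DNA of each blastomere was amplified with its own barcode.

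Replication timing is the order in which parts of the genome are copied during S phase. Gene-rich, open chromatin is generally copied early, and gene-poor chromatin at the nuclear lamina late. Rif1 binds late-replicating chromatin and recruits protein phosphatase 1, which counteracts the DDK kinase that fires replication origins. In the early mouse embryo the timing program is built up over the cleavage divisions, and the morula is the compacted embryo in which the inner and outer lineages begin to separate.

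The tables gave each cell a state of 0 or 1, or no value, in each 50-kb bin of chromosomes 1 to 19. The tables do not say which state is replicated. State 1 was taken as such because it was the more frequent where genes lie, in 58.5% of siRif1 cells and 64.1% of siCont cells on average in bins with a gene midpoint, against 46.3% of siRif1 cells and 43.1% of siCont cells elsewhere. Used were 46148 of the 49264 bins, those with a state in 10 or more cells of both groups. The rule left no borderline bins. A used bin had at least 42 measured cells in each group, and each of the 3116 bins left out had no measured cell in at least 1 group. Between 88.9% and 94.0% of bins were measured in a siRif1 cell and between 88.1% and 93.8% in a siCont cell. No 2 cells were identical, and the least different pair differed at 14.7% of bins. These are DNA data, so how far Rif1 itself was depleted could not be read from them.

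Neither an embryo nor a litter or batch is named for a cell, so each group counted as 1 sample and cells were not treated as replicates. No p-values are given. Differences are described by their size, by the overlap of the cells and by how many of the 19 autosomes showed them.

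Cells of both groups covered a similar span of S phase. The percent of bins replicated in a cell ran from 24.1% through a median of 46.8% to 90.8% in siRif1, and from 25.2% through 47.5% to 81.8% in siCont. The groups overlapped over nearly all of this span but filled it unevenly. Cells with 20 to 40% of bins replicated numbered 16 siRif1 and 10 siCont, those with 40 to 60% numbered 13 siRif1 and 24 siCont, and those with 60 to 80% numbered 14 siRif1 and 8 siCont. Values are therefore also given within these 3 windows.

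The replication profile was flatter in siRif1 morulae. The replicated share of a bin, the percent of its measured cells in the replicated state, had an SD over bins of 17.3 points in siRif1, against 25.8 points in siCont. On each of the 19 autosomes the SD was smaller in siRif1, with a ratio of siRif1 to siCont between 0.616 on chromosome 19 and 0.711 on chromosome 13. Intermediate shares, from 30% to under 70%, were found in 70.4% of bins in siRif1 and 41.2% in siCont. Bins replicated in under 10% of cells made up 0.195% of the genome in siRif1 and 7.84% in siCont. Bins replicated in at least 90% of cells made up 0.0368% in siRif1 and 1.12% in siCont. Both ends of the profile were thus nearly empty in siRif1 cells.

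The broad order of the profile was retained on average. Across bins the siRif1 and siCont shares correlated with a Pearson r of 0.890, and r within an autosome ran from 0.845 on chromosome 9 to 0.916 on chromosome 16. Neighbouring bins share states, so these values describe the profiles and bins are not independent.

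Bins were placed in timing classes by siCont cells of the 4-cell and 8-cell stages, which are not part of the morula comparison. The shift of a bin is its replicated share in siRif1 minus that in siCont, after the mean over bins was taken from each group. A positive shift, in points, is called earlier and a negative one later. From the latest to the earliest of 5 equal classes the mean shift was 11.6, 6.57, -1.84, -7.17 and -9.16 points. Late bins were copied in relatively more siRif1 cells and early bins in relatively fewer. The latest class had a mean share of 28.2% in siRif1, against 16% in siCont, and the earliest 69.6% in siRif1, against 78.2% in siCont. The shift of the latest class minus that of the earliest was 20.8 points over the genome, and ran from 15.2 points on chromosome 13 to 31.5 points on chromosome 19, so all 19 autosomes had it in the same direction. The latest class was earlier, and the earliest class later, on each of them.

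Dividing each group's centred shares by their own SD removes a uniform flattening. After this scaling the 5 classes had mean shifts of 0.904, 1.40, -0.917, -1.66 and 0.340 points, and the difference between the latest and the earliest was 0.564 points. The gradient over timing classes was thus nearly absent on the scaled values.

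**Figure D1:**
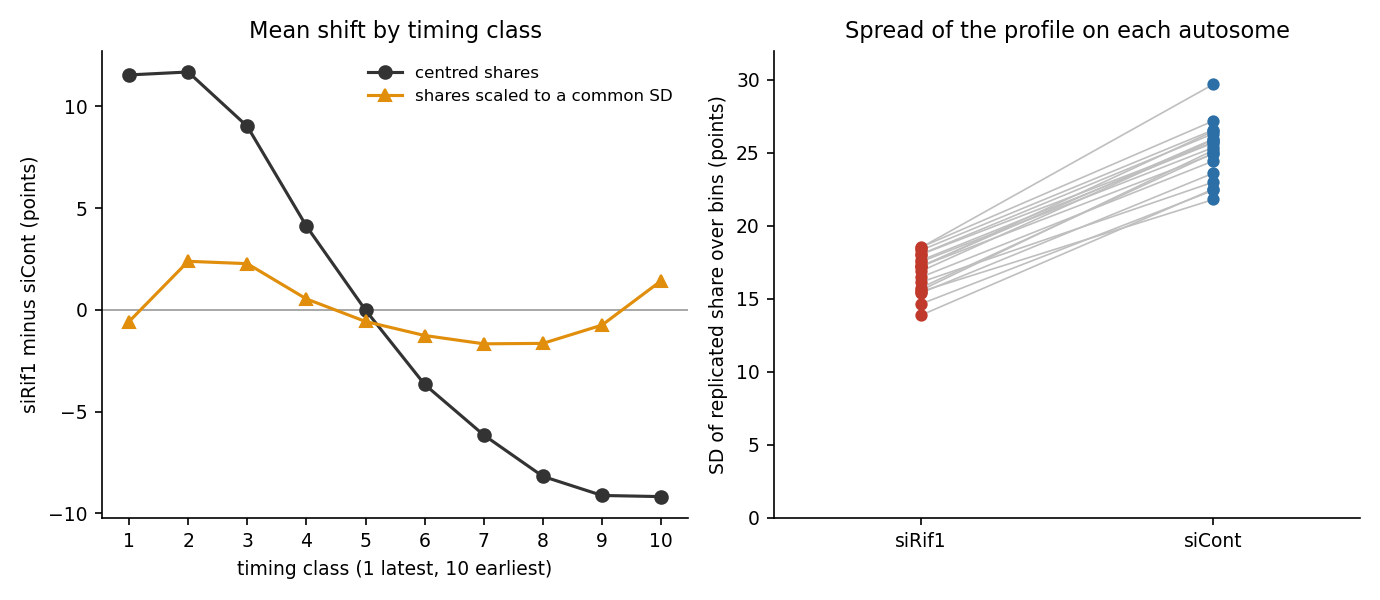
Left, mean shift of bins in points (siRif1 minus siCont) in 10 equal timing classes from 1 (latest) to 10 (earliest), for centred shares (circles) and for shares scaled to a common SD (triangles). Right, SD of the replicated share over bins on each of the 19 autosomes in siRif1 and siCont, joined by autosome; every line is lower on the siRif1 side.

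The difference grew with position in S phase. In cells with 20 to 40% of bins replicated, the latest class was replicated in 9.42% of siRif1 cells and 6.54% of siCont cells, and the earliest class in 58.9% of siRif1 and 63.5% of siCont cells. In cells with 40 to 60%, the latest class was at 20.5% in siRif1 and 13.3% in siCont, and the earliest at 71.4% in siRif1 and 79.8% in siCont. In cells with 60 to 80%, the latest class was at 49.5% in siRif1 and 23.3% in siCont, and the earliest at 77.5% in siRif1 and 88.5% in siCont. The gap between the earliest and the latest class was smaller in siRif1, with siRif1 minus siCont at -7.49, -15.6 and -37.1 points in the 3 windows.

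Single cells of the 60 to 80% window were the most separated. The latest class was replicated to 23.2% in the lowest, 49.8% in the median and 67% in the highest of 14 siRif1 cells. In the 8 siCont cells it was replicated to 13.3% in the lowest, 20.7% in the median and 41.1% in the highest. All 14 siRif1 cells lay above the siCont median, and 11 of them above the highest siCont cell. For the earliest class, 7 of the 14 siRif1 cells lay below the lowest siCont cell, and all 14 below the siCont median. The most extreme siRif1 cell, with 66% of its bins replicated, had 64% of its earliest class and 67% of its latest class replicated, with an order score, defined below, of 0.490. In the siCont cell of this window with the widest gap, 99.7% of the earliest class and 14.4% of the latest class were replicated. The mean percent replicated in the window was 66.2% in siRif1 and 64.9% in siCont.

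**Figure D2:**
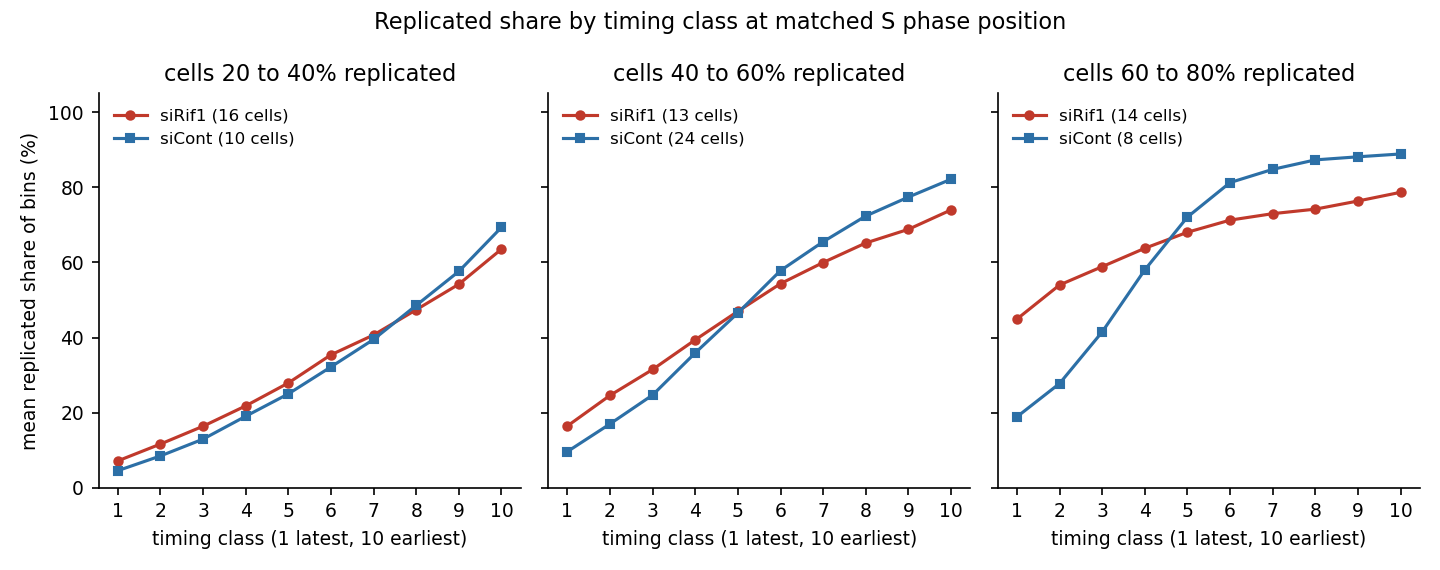
Mean replicated share of bins (percent) in 10 timing classes from 1 (latest) to 10 (earliest), for cells with 20 to 40, 40 to 60 and 60 to 80% of bins replicated, in siRif1 (circles) and siCont (squares). The siRif1 curve is the flatter in each window, and the latest of 5 equal classes lies at 49.5%, against 23.3% in siCont, in the last.

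How closely a single cell followed the timing order was measured with an order score. It is the chance that a replicated bin of the cell has an earlier timing in the siCont 4-cell and 8-cell embryos than an unreplicated one, so 0.5 is random and 1 is perfect order. Among cells between 20 and 80% replicated, the score ran from 0.490 through a median of 0.707 to 0.871 in 43 siRif1 cells. It ran from 0.578 through 0.806 to 0.922 in 42 siCont cells. The ranges overlapped, with siRif1 cells shifted down. A score under 0.6 was found in 8 of 43 siRif1 cells (18.6%, exact 95% interval 8.39 to 33.4%) and in 1 of 42 siCont cells (2.38%, 0.0603 to 12.6%). A score of 0.8 or more was found in 6 of 43 siRif1 cells and 23 of 42 siCont cells. These Clopper-Pearson intervals, here and below, cover counting error only.

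The difference in order was widest in the last window. Median scores were 0.743 in siRif1 and 0.779 in siCont at 20 to 40% replicated, 0.713 in siRif1 and 0.814 in siCont at 40 to 60%, and 0.609 in siRif1 and 0.821 in siCont at 60 to 80%. At 60 to 80%, 9 of the 14 siRif1 cells scored below the lowest siCont cell, and 6 of 14 siRif1 and 0 of 8 siCont cells scored under 0.6. A count of 0 of 8 cells, here and below, allows a share of up to 37.5%. This limit is 3 divided by the number of cells and is not a Clopper-Pearson limit. Across siRif1 cells the score fell with the percent replicated (Pearson r -0.494 over 43 cells), while r was 0.0864 over 42 siCont cells. These r values are descriptions over cells of 1 sample each, and the difference between them was not tested.

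The score depended on the yardstick in size but not in direction. Scored against the 4-cell and 8-cell siRif1 cells, the medians were 0.679 in siRif1 and 0.754 in siCont. Scored against the other cells of their own group, they were 0.693 in siRif1 and 0.824 in siCont. By this last measure siRif1 cells had medians of 0.627, 0.661 and 0.693 at the 4-cell, 8-cell and morula stages, and siCont cells had 0.667, 0.742 and 0.824. Morulae had the highest median of the 3 stages in both groups, and the siRif1 morula median lay between those of the 4-cell and 8-cell controls. Each group and stage has its own yardstick in this measure, and stages were not matched for percent replicated. The place of a median among the stages is therefore not a measure of developmental stage.

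Differences between whole chromosomes of a cell moved with the score. The SD of percent replicated over a cell's chromosomes had a median of 10.6 points in siRif1 and 10.5 points in siCont at 20 to 80% replicated. It was 9.57 points in siRif1 and 11.6 points in siCont at 20 to 40%. At 40 to 60% it was 9.87 points in siRif1 and 9.96 points in siCont, and at 60 to 80% 14 points and 10.2 points. Over all cells between 20 and 80% this SD correlated with the score at r -0.546 in siRif1 and -0.647 in siCont. Scored within chromosomes, the median was 0.702 in siRif1 and 0.808 in siCont over all windows, against 0.707 and 0.806 over the genome. At 60 to 80% it was 0.617 in siRif1 and 0.821 in siCont, against 0.609 and 0.821 over the genome. What differences between chromosomes add to the score was not tested. On each of the 19 autosomes taken alone the siRif1 median was lower, with siRif1 minus siCont between -0.138 and -0.0614. Chromosomes with no measured bin occurred once each in 2 siRif1 cells and 4 siCont cells, and 1 cell of each group had a chromosome that was over 99% replicated. A chromosome under 1% replicated occurred in 0 siRif1 cells and 2 siCont cells.

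**Figure D3:**
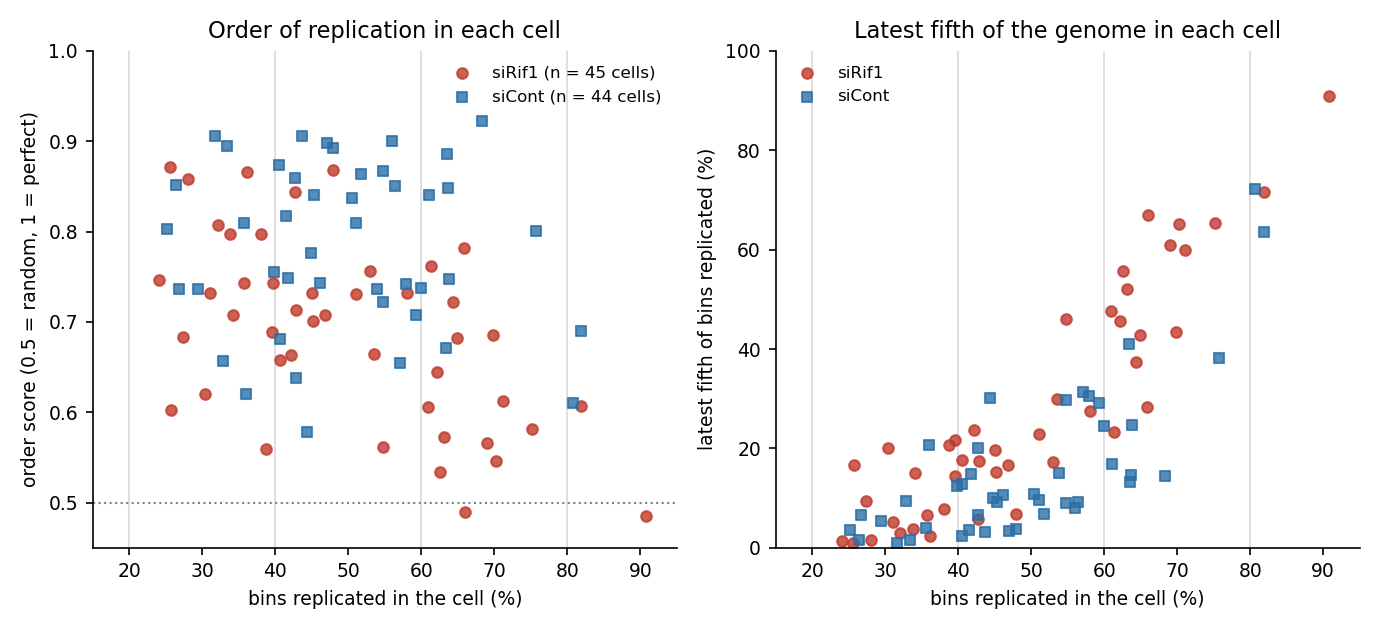
Each point is a cell, siRif1 (circles) or siCont (squares), plotted by its percent of bins replicated. Left, the order score (dotted line, random order); right, the percent replicated of the latest of 5 equal classes of bins. Beyond 60% replicated most siRif1 cells lie lower in score and higher in the latest class than siCont cells.

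Cells of the same group also resembled each other less in siRif1. Cells between 20 and 80% replicated were paired with cells at most 5 points away, and each pair was compared by the Pearson correlation of their states. The median was 0.119 over 161 siRif1 pairs, 0.183 over 339 mixed pairs and 0.265 over 181 siCont pairs. In the 60 to 80% window the median was 0.0525 over 52 siRif1 pairs and 0.356 over 19 siCont pairs. The quartiles did not overlap there, running from 0.0244 to 0.0885 in siRif1 and from 0.254 to 0.440 in siCont. Cells recur in many pairs, so pairs are not independent.

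The share of bins that were mixed between cells, replicated in 25 to 75% of them, was higher in siRif1 in each window. It was 59.8% in siRif1 and 44.1% in siCont at 20 to 40% replicated, 60.4% in siRif1 and 53.3% in siCont at 40 to 60%, and 66.2% in siRif1 and 43% in siCont at 60 to 80%. The numbers of cells differ between groups in a window, and these shares depend on that number.

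The patchwork of replicated and unreplicated stretches was compared by switches of state along the genome. A cell between 20 and 80% replicated switched state a median of 950 times in siRif1, ranging from 561 to 1387, and 935 times in siCont, ranging from 650 to 1198. Replicated stretches had a median length of 1250 kb in siRif1 and 1400 kb in siCont, and unreplicated ones 1400 kb in siRif1 and 1500 kb in siCont. Within windows the medians lay further apart. They were 964 switches in siRif1 and 872 in siCont at 20 to 40% replicated, 1005 in siRif1 and 980 in siCont at 40 to 60%, and 897 in siRif1 and 782 in siCont at 60 to 80%. In the last window a cell's replicated stretches had a median length of 35.8 bins in siRif1 and 45.8 bins in siCont. These lengths were 21 bins in siRif1 and 22 in siCont at 20 to 40%, and 28 bins in both groups at 40 to 60%. The ranges of both groups overlapped in each window. No stretch in either group was shorter than 5 bins, so smaller patches could not be seen in these states.

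A bin was called when its shift reached 20 points in either direction. Binomial counting of about 45 cells a group gives a shift a median SD of 9.74 points, and the SD of all shifts was 13 points. After scaling the SD of all shifts was 10.1 points, near that counting SD, which was computed for unscaled shifts. Earlier by at least 20 points were 2953 bins (6.4% of 46148), and later by at least 20 points were 2586 bins (5.6%). After scaling these shares were 2.06% earlier and 2.78% later, and earlier bins made up 42.6% of all called bins, against 53.3% without scaling. By chromosome, earlier bins ranged from 2.34% of chromosome 17 to 12.5% of chromosome 16, and later bins from 1.89% of chromosome 18 to 10.1% of chromosome 17.

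Called bins joined into 97 earlier and 94 later domains, runs with at least 10 called bins and gaps of at most 2 bins. The earlier domains covered 99.3 Mb and held 1.06 protein-coding genes per Mb, against 15.2 per Mb over 80 Mb of later domains and 8.44 per Mb over all used bins. No gene midpoint lay in 52 of the 97 earlier domains, while every later domain held one. Earlier domains were late in controls, with a median share of 37.2% in siRif1 and 12.6% in siCont. Later domains were early in controls, with a median share of 54.9% in siRif1 and 79.0% in siCont. Of the earlier domains, 92 had a siCont share under 30%, and of the later domains 92 had one over 60%. Of all used bins, 7.84% had a siCont share under 10% and 21.3% one from 10 to under 30%. Shares from 70 to under 90% were found in 28.5% and of 90% or more in 1.12%. Domains were called on these same siCont shares, so the calling itself favours low shares in earlier and high shares in later domains.

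The earlier domain with the largest summed shift was chr16:65450001-69950000 (GRCm38), a 4.5-Mb region with 6 genes that include Cadm2, a synaptic adhesion molecule, Vgll3, a cofactor of TEAD factors, and Chmp2b, a subunit of the ESCRT-III membrane remodelling complex. More than 50% of its bins were replicated in 12 of 45 siRif1 cells (26.7%, 14.6 to 41.9%) and in 1 of 42 siCont cells (2.38%, 0.0603 to 12.6%). Of the 12 siRif1 cells, 8 were among the 14 cells with 60 to 80% of bins replicated, and none of the 8 siCont cells in that window had copied the region. Cadm2, the longest of these genes, was replicated in 15 of 45 siRif1 and 1 of 42 siCont cells.

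The next earlier domain, chr8:96500001-100450000, held a single gene, Cdh8, a type II cadherin of neurons. It was mostly replicated in 12 of 45 siRif1 cells and 3 of 44 siCont cells. The domain chr19:50150001-52800000 with Sorcs1, a neuronal sorting receptor, and the insulin gene Ins1 was mostly replicated in 18 of 45 siRif1 cells and 5 of 44 siCont cells. The domain chr5:81900001-84550000 with the ephrin receptor Epha5 and the reductase-like gene Tecrl was mostly replicated in 15 of 45 siRif1 cells and 1 of 44 siCont cells. It had been copied in 4 of 13 siRif1 cells and 0 of 24 siCont cells with 40 to 60% of bins replicated. A count of 0 of 24 cells allows a share of up to 12.5%.

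A difference between 40 and 60% replicated was also seen at chr12:36550001-39150000, which holds the lipid kinase gene Dgkb and the ether lipid enzyme gene Agmo. In that window it had been copied in 5 of 13 siRif1 cells and 0 of 24 siCont cells, and over all cells in 19 of 45 siRif1 and 2 of 44 siCont cells. The sixth earlier domain, chr13:87300001-89600000 with the extracellular matrix genes Edil3 and Hapln1, was mostly replicated in 14 of 45 siRif1 cells and 3 of 44 siCont cells. Here 10 of the 14 siRif1 cells came from the 60 to 80% window. The 6 domains had mean shifts between 23.9 and 28.8 points.

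The later domain with the largest summed shift was chr10:60950001-63150000, with 39 gene midpoints that include Col13a1, a transmembrane collagen, Hk1, the hexokinase that starts glycolysis, and Lrrc20. It was mostly replicated in 29 of 45 siRif1 cells (64.4%, 48.8 to 78.1%) and 40 of 44 siCont cells (90.9%, 78.3 to 97.5%). At 20 to 40% replicated it had been copied in 10 of 16 siRif1 cells and 10 of 10 siCont cells. At 60 to 80% it was still uncopied in 3 of 14 siRif1 cells and 0 of 8 siCont cells. Its mean replicated share over bins was 62.7% in siRif1 and 88.1% in siCont.

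The domain chr17:25100001-27500000, with 76 gene midpoints, held the secretory pathway gene Ergic1, the glutamate receptor gene Grm4 and the lipase maturation gene Lmf1, and was mostly replicated in 23 of 45 siRif1 and 32 of 44 siCont cells. The domain chr2:25600001-27650000 held Vav2, an exchange factor of small GTPases, the transcriptional repressor gene Nacc2 and the BET bromodomain gene Brd3. It was mostly replicated in 29 of 45 siRif1 cells and 38 of 44 siCont cells. The domain chr17:73750001-75350000 with Ltbp1, which stores latent TGF-beta, the apoptosis inhibitor gene Birc6 and Ttc27 was mostly replicated in 23 of 45 siRif1 cells and 37 of 44 siCont cells. Ltbp1 had the widest difference among the genes named for these 6 domains, being replicated in 18 of 45 siRif1 and 34 of 44 siCont cells.

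The last 2 of the 6 were chr6:83100001-84650000 with the exocyst gene Exoc6b, the membrane repair gene Dysf and Zfp638, and chr16:89850001-91400000 with the Rac exchange factor gene Tiam1, the kinase gene Hunk and Eva1c. The first was mostly replicated in 24 of 45 siRif1 cells and 36 of 43 siCont cells. The second was mostly replicated in 27 of 45 siRif1 cells and 34 of 42 siCont cells. The 6 later domains had mean shifts between -26.2 and -23.7 points. Chromosome 16 held both the leading earlier domain and a later domain.

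A short domain with a larger mean shift, singled out after its values were seen, was chr7:43250001-43950000, with a mean of -34.6 points. It holds 32 gene midpoints, among them Siglece, Iglon5 and Klk5 of the Siglec, immunoglobulin-like adhesion and kallikrein families. It was mostly replicated in 19 of 43 siRif1 cells and 36 of 44 siCont cells.

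**Figure D4:**
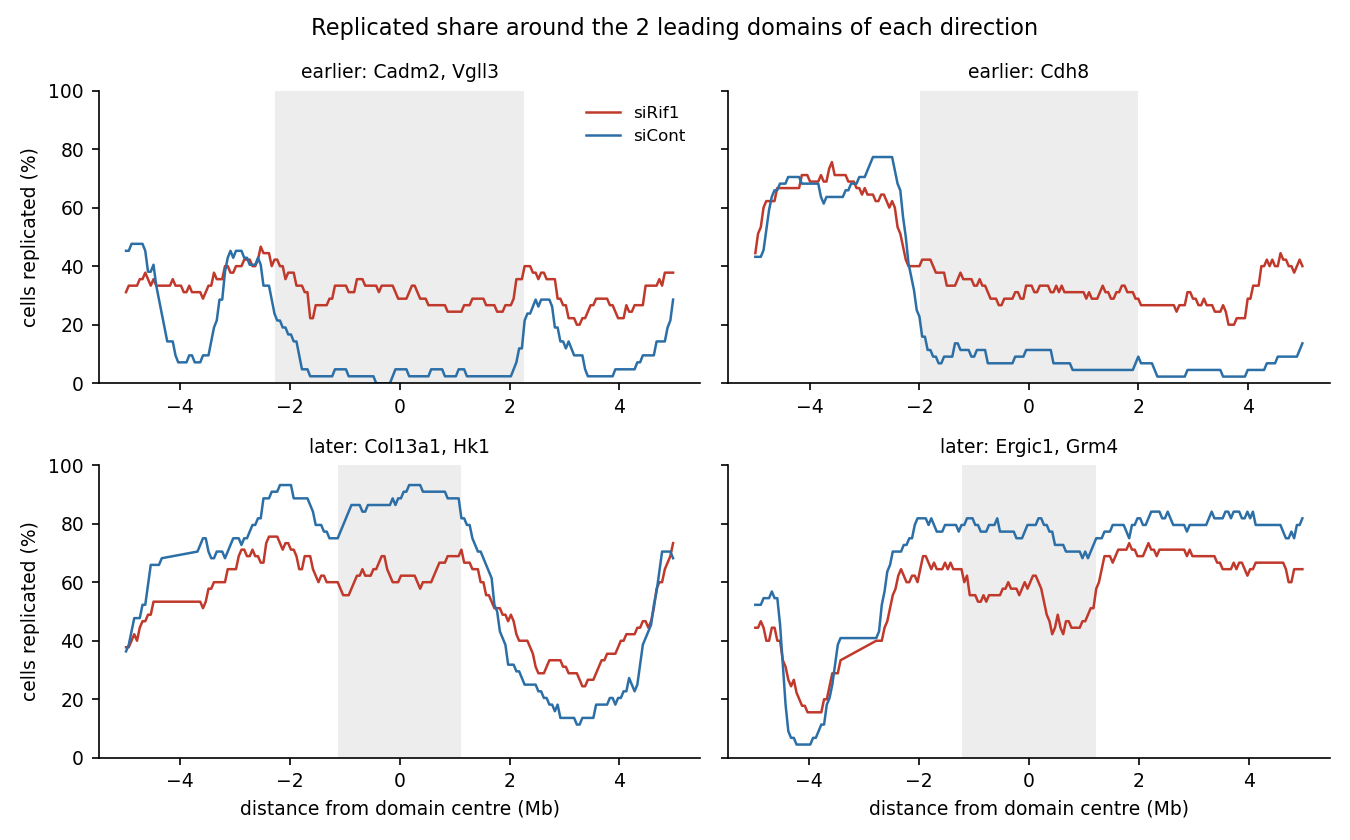
Percent of cells replicated along 10 Mb around the centres of the 2 leading earlier domains (top) and later domains (bottom), in siRif1 and siCont, with the domain shaded. In the earlier domains siRif1 lies above siCont across the shaded region; in the later domains siCont stays above siRif1 across the shaded region.

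After scaling other regions led, although some scaled domains lay inside domains described above. Examples are chr12:38650001-39150000 in the domain with Dgkb and chr7:43250001-43900000 in the domain with Siglece. Scaling left 25 earlier and 31 later domains. As scaled shifts spread little more than counting error, these domains may include counting error, which was not tested. The leading earlier one, chr9:116150001-117550000 with the RNA-binding protein gene Rbms3 and the TGF-beta receptor gene Tgfbr2, was mostly replicated in 27 of 45 siRif1 cells and 10 of 44 siCont cells. At 20 to 40% replicated it had been copied in 8 of 16 siRif1 cells and 1 of 10 siCont cells. A gene-free region at chr10:16200001-17300000 was mostly replicated in 23 of 45 siRif1 and 6 of 44 siCont cells. The region chr2:137450001-138500000 with Btbd3, a regulator of dendrite orientation, was mostly replicated in 21 of 45 siRif1 and 6 of 44 siCont cells. The fourth, chr2:70750001-71750000, was early in both groups. It holds the chromatin assembly kinase gene Tlk1, the mitochondrial carrier gene Slc25a12 and the methyltransferase gene Mettl8, and was mostly replicated in 40 of 45 siRif1 and 30 of 44 siCont cells. Its mean replicated share was 86.1% in siRif1 and 70.6% in siCont, so it was earlier in siRif1 although it lay among the early regions of siCont.

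Among later domains after scaling, chr3:78900001-80200000 with Rapgef2, an activator of Rap GTPases, Gm17359 and the AMPK-binding gene Fnip2 was mostly replicated in 19 of 45 siRif1 and 34 of 44 siCont cells. The region chr6:34600001-35850000 with the actin-binding gene Cald1, the CCR4-NOT gene Cnot4 and Agbl3 was mostly replicated in 22 of 45 siRif1 and 36 of 43 siCont cells. The region chr5:8000001-9100000 with Adam22, the drug efflux pump gene Abcb1a and Rundc3b was mostly replicated in 9 of 45 siRif1 and 21 of 44 siCont cells, and so was replicated late in siRif1 and midway in siCont. The region chr7:83450001-84700000 with Arnt2, the hyaluronan-degrading gene Cemip and Il16 was mostly replicated in 20 of 43 siRif1 and 33 of 44 siCont cells.

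Gene density went with the shift within timing classes, less so in the earliest. In the latest of the 5 timing classes, bins with no gene midpoint within 1 Mb centred on them had a mean shift of 14.6 points, and bins with 20 or more had 3.56 points. In the middle class these means were 5.69 points and -9.37 points, and in the next earlier class -3.07 and -10.9 points. After scaling the gap remained in the latest class, at 2.68 points for bins with no gene and -6.25 points for bins with 20 or more. It also remained in the second latest class, at 5.15 and -7.35 points. In the middle class the scaled means were 3.16 and -5.94 points, and in the next earlier class 0.415 and -3.91 points. In the earliest class the mean shift was -8.33 points for bins with 1 to 9 genes and -10.2 points for bins with 20 or more, and after scaling these were 0.178 and 0.0274 points, with no gradient. Within a class the gene-poor bins were also the later ones in siCont, with a share of 11.3% against 23.1% in the latest class, so the finer timing and the gene density cannot be told apart here.

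Protein-coding genes were mostly later. Of 19485 genes with a midpoint in a used bin, 74.7% had a shift below 0 and 25.3% above. Earlier by at least 20 points were 225 genes (1.15%), and later by at least 20 points were 1949 (10%). After scaling, 57% of genes lay below 0 and 43% above, and the earlier share of called genes was 22.1%, against 10.3% without scaling. The median shift of all genes was -7.98 points, and -1.68 points after scaling. Shifts of gene groups are read against this median, and each is the value of the 50-kb bin at the gene's midpoint.

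The largest shift of any gene, singled out after its value was seen, was that of Vmn1r179, a type 1 vomeronasal pheromone receptor gene at chr7:23928386-23929357. Its bin was replicated in 26 of 43 siRif1 cells (60.5%, 44.4 to 75%) and 6 of 44 siCont cells (13.6%, 5.17 to 27.4%), a shift of 46.2 points. The shift of this bin was -0.681 points at the 8-cell stage and -13.5 points at the 4-cell stage. Its neighbour Vmn1r180 was replicated in 27 of 43 siRif1 and 12 of 44 siCont cells.

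Promoters are shown for this gene and for the longest gene of the leading earlier and later domains, to set their sequence beside opposite shifts. They are RefSeq sequences of GRCm38.p6, from 250 bases before to 50 bases after the gene start, on the gene's strand, with each CG pair in capitals. They lie at chr7:23928136-23928435 on the plus strand for Vmn1r179, chr16:67620859-67621158 on the minus strand for Cadm2 and chr10:61979059-61979358 on the minus strand for Col13a1.
Vmn1r179: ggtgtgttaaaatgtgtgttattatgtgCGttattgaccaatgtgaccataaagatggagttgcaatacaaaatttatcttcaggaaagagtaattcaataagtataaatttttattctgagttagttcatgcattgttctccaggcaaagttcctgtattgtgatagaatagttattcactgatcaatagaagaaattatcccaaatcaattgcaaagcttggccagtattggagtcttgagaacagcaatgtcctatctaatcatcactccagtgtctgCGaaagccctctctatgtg
Cadm2: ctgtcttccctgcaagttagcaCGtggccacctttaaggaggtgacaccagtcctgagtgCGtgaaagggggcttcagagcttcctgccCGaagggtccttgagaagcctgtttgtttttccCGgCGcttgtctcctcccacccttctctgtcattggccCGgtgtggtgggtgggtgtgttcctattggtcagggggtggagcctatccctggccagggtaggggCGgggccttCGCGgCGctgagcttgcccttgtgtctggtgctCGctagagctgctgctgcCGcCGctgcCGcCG
Col13a1: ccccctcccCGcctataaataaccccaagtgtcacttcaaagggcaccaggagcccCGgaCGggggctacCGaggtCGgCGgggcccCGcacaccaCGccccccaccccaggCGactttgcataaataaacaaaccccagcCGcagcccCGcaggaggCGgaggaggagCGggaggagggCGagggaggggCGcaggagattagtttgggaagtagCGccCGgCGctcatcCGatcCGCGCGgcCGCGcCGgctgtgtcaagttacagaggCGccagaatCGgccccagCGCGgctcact
The Vmn1r179 promoter held 2 CG pairs, that of Cadm2 15 and that of Col13a1 29. Cadm2 and Vmn1r179 were both earlier in siRif1, although their promoters differed in CG content. Over genes matched to a promoter, the median was 7 CG pairs in 173 genes earlier by at least 20 points, 17 in 1595 genes later by at least 20 points and 15 in all 15542. At least 1 CG pair lay in 95.7% of all matched promoters. Within each of the 3 latest timing classes the medians of earlier and later genes differed by at most 1 CG pair. In the latest class the median was 3 CG pairs in 74 earlier genes, 4 in 28 later genes and 1 in 1432 genes that were not called. In the next class it was 9 in earlier, 9 in later and 8 in uncalled genes, and in the middle class 12, 13 and 14. Gene counts carry no replicate error, and genes of 1 domain share their bins.

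Genes of compaction, polarity and Hippo signalling, which make the morula's cell contacts and separate inner from outer cells, were mostly later. Of 34 measured members 30 had a negative shift (88.2%, against 74.7% of all genes), with a median of -9.70 points, against -7.98 points over all genes. After scaling 21 of 34 were negative and the median was -2.71 points, against -1.68 points over all genes. Later by at least 20 points were 4 of 34 (11.8%, against 10% of all genes) and earlier 0 (against 1.15% of all genes). Prkci, the atypical protein kinase C of the apical domain, was replicated in 25 of 45 siRif1 and 36 of 44 siCont cells. Mob1a, an adaptor of the Lats kinases, was replicated in 26 of 45 siRif1 and 35 of 43 siCont cells. Cdh1, the E-cadherin gene, lay near the group's median and was replicated in 37 of 45 siRif1 and 40 of 44 siCont cells, with a scaled shift of 5.39 points. Rock1, a kinase gene of actomyosin contraction, was replicated in 25 of 45 siRif1 and 28 of 43 siCont cells.

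Genes of the primitive endoderm and of FGF signalling stood nearer to 0. Of 24 members 12 were negative and 12 positive, and the median was -0.833 points, or 5.65 points after scaling. None reached 20 points in either direction, against 1.15% earlier and 10% later of all genes. Foxa2, a forkhead factor of endoderm, was replicated in 22 of 45 siRif1 and 13 of 44 siCont cells, a shift of 18.8 points. The FGF receptor gene Fgfr2 was replicated in 28 of 43 siRif1 and 35 of 44 siCont cells, a shift of -15.0 points. Near the median, the basement membrane collagen gene Col4a1 was replicated in 33 of 45 siRif1 and 32 of 44 siCont cells, and the FGF signalling inhibitor gene Spry2 in 22 of 45 siRif1 and 22 of 44 siCont cells.

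Genes of DNA methylation and heterochromatin had the most negative median of the groups described, -11.4 points over 33 measured members, of which 31 were negative (93.9%, against 74.7% of all genes). Later by at least 20 points were 6 of them (18.2%, against 10% of all genes). Tet3, the oxidase that removes methylation after fertilisation, was replicated in 25 of 45 siRif1 and 35 of 43 siCont cells. Tet3 and Mob1a both lie in the later domain with Exoc6b described above. The chromatin ATPase gene Morc3 was replicated in 26 of 45 siRif1 and 35 of 42 siCont cells. Dnmt3l, a cofactor of the de novo methyltransferases, was replicated in 29 of 45 siRif1 and 33 of 44 siCont cells, and the histone methyltransferase gene Kmt5b in 35 of 45 siRif1 and 39 of 44 siCont cells. After scaling the median was -3.72 points, with 22 of 33 negative.

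Genes of the nuclear lamina and envelope were negative in 20 of 22 cases (90.9%, against 74.7% of all genes), with a median of -8.99 points. After scaling 12 of 22 were negative and the median was -0.733 points. Later by at least 20 points was 1 gene (4.55%, against 10% of all genes). That gene was Lemd2, an inner nuclear membrane protein, replicated in 20 of 45 siRif1 and 31 of 44 siCont cells. Lemd2 lies in the later domain with Ergic1 described above. Zmpste24, the prelamin A protease, was replicated in 23 of 45 siRif1 and 31 of 44 siCont cells. The lamin B receptor gene Lbr and the LINC complex gene Sun2 lay near the median, Lbr with 31 of 45 siRif1 and 34 of 44 siCont cells and Sun2 with 32 of 45 siRif1 and 35 of 44 siCont cells.

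Among replication checkpoint and DNA repair genes 30 of 39 were negative (76.9%, against 74.7% of all genes), and the median was -6.84 points, or 1.48 points after scaling. Palb2, the partner of Brca2, was replicated in 24 of 43 siRif1 and 37 of 44 siCont cells, and Rad9a of the checkpoint clamp in 30 of 45 siRif1 and 38 of 44 siCont cells. These were the 2 members later by at least 20 points (5.13%, against 10% of all genes). The checkpoint kinase gene Atm was replicated in 31 of 45 siRif1 and 33 of 44 siCont cells, and Brca1 in 34 of 45 siRif1 and 36 of 44 siCont cells.

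Among cell cycle regulator genes 29 of 39 were negative (74.4%, against 74.7% of all genes), and the median was -8.03 points, or 1.07 points after scaling. The mitotic kinase gene Plk1, replicated in 25 of 43 siRif1 and 37 of 44 siCont cells, was the 1 member later by at least 20 points (2.56%, against 10% of all genes), and it lies next to Palb2 on chromosome 7. The retinoblastoma gene Rb1 was replicated in 24 of 45 siRif1 and 32 of 44 siCont cells. The cyclin genes Ccne1 and Ccnd3 lay near the median, with 31 of 43 siRif1 and 35 of 44 siCont cells for Ccne1 and 29 of 45 siRif1 and 32 of 44 siCont cells for Ccnd3.

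Among families collected by name, 68 of 76 genes of oxidative phosphorylation were negative (89.5%, against 74.7% of all genes), with a median of -10.9 points and 11 later by at least 20 points (14.5%, against 10%). The complex I gene Ndufb5 was replicated in 17 of 45 siRif1 and 33 of 44 siCont cells, and Ndufc1 of the same complex in 24 of 45 siRif1 and 37 of 44 siCont cells. Of 38 proteasome subunit genes 31 were negative (81.6%, against 74.7% of all genes), with a median of -6.49 points and 8 later by at least 20 points (21.1%, against 10% of all genes). Psma6 was replicated in 27 of 45 siRif1 and 38 of 44 siCont cells, and Psmb11, the thymus-specific subunit, in 23 of 45 siRif1 and 34 of 44 siCont cells. After scaling the proteasome median was 0.649 points and that of oxidative phosphorylation -3.66 points.

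Classical and type II cadherin genes were split. Of 23 members 12 were positive and 11 negative. Earlier by at least 20 points were 6 (26.1%, against 1.15% of all genes) and later 2 (8.70%, against 10% of all genes). Cdh11, a mesenchymal cadherin, was replicated in 18 of 45 siRif1 cells (40%, 25.7 to 55.7%) and 2 of 44 siCont cells (4.55%, 0.555 to 15.5%). Cdh24 was replicated in 23 of 45 siRif1 and 34 of 44 siCont cells and shares its bin with Psmb11. Several cadherin genes are neighbours, and the 23 genes lie on 8 chromosomes, so they are not independent. Their median was 2.65 points at the gene midpoints and -2.70 points as a mean over gene bodies.

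Of 39 voltage-gated potassium channel genes 32 were negative (82.1%, against 74.7% of all genes), and the median was -8.71 points, or -5.46 points after scaling. Kcnv1, a silent channel subunit, was replicated in 16 of 45 siRif1 and 6 of 44 siCont cells. Keratin-associated protein genes, which build hair, had a median of 4.87 points, with 28 of 52 positive. None was past 20 points, against 1.15% earlier and 10% later of all genes. The direction turned with the setting, to a median of -0.488 points with 24 of 52 positive after scaling, -2.01 points with 4 S phase windows weighted equally and -2.07 points with the cells under 60% replicated. Krtap5-1 was replicated in 26 of 43 siRif1 and 33 of 44 siCont cells, and Krtap5-4 in 25 of 43 siRif1 and 32 of 44 siCont cells. The 52 genes share 27 bins.

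**Figure D5:**
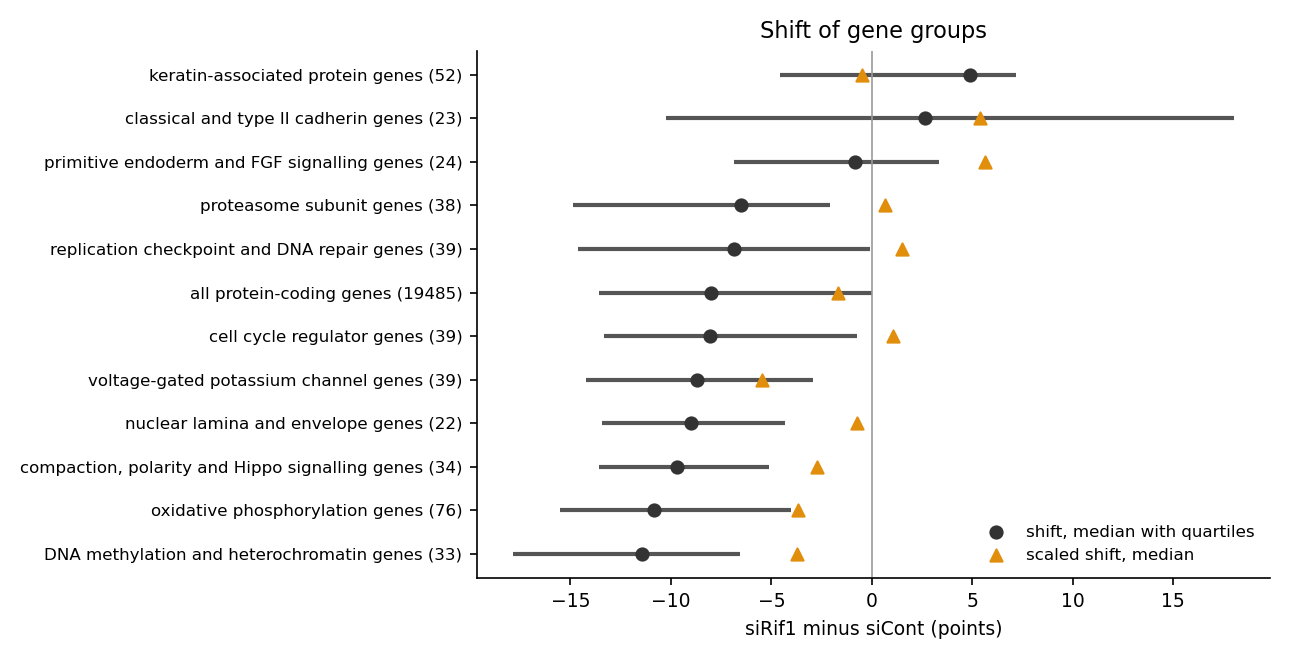
Median shift (circles, with bars from the first to the third quartile of the genes) and median scaled shift (triangles) in points, siRif1 minus siCont, for gene groups with at least 80% of members measured; the number of measured genes is in brackets. Most groups lie left of 0 with all genes at -7.98 points, and scaling brings most medians closer to 0. Those of primitive endoderm (-0.833 to 5.65 points) and cadherin genes (2.65 to 5.39 points) move away from 0.

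Families measured at under 80% of their members are given as counts, beside 25.3% of all genes above 0, or 43% after scaling. Type 1 vomeronasal receptor genes were measured at 129 of 230 members, with 77 positive and 52 negative, but 35 positive and 94 negative after scaling. Type 2 receptor genes were measured at 59 of 122, with 47 positive and 12 negative, but 20 positive and 39 negative after scaling. Killer cell lectin-like receptor genes were measured at 14 of 25, with 11 positive and 3 negative, but 2 positive and 12 negative after scaling. Bitter taste receptor genes were measured at 17 of 35, with 2 positive and 15 negative, and 4 positive and 13 negative after scaling. Defensin genes were measured at 41 of 70, with 13 positive and 28 negative, but 24 positive and 17 negative after scaling. Members share bins, so they are not independent. The measured killer lectin genes lie in 10 bins on 1 chromosome, and the bitter taste genes in 10 bins on 3. Defensin genes lie in 21 bins on 4 chromosomes, and type 1 and type 2 vomeronasal genes in 93 and 57 bins on 6 each.

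The Rif1 gene, at chr2:52072815-52126769, was itself little shifted. Its bin was replicated in 26 of 45 siRif1 cells (57.8%, 42.2 to 72.3%) and 28 of 44 siCont cells (63.6%, 47.8 to 77.6%), a shift of -6.44 points.

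The morula shifts were set beside those of the other stages, each of which has its own siRif1 and siCont cells. Across 46069 bins the morula shift correlated with that at the 8-cell stage at r 0.496, and across 46075 bins with that at the 4-cell stage at r 0.0469. After scaling these were 0.139 and 0.0417. Bins earlier by at least 20 points in morulae had a mean shift of 10.3 points at the 8-cell stage and -0.111 points at the 4-cell stage. Bins later by at least 20 points had means of -7.98 points and -0.317 points at these stages. The shift had the same sign at the 8-cell stage in 88 of 97 earlier and 73 of 94 later domains, and at the 4-cell stage in 44 and 46. Of the domains that remained after scaling, 15 of 25 earlier and 21 of 31 later ones had the same sign at the 8-cell stage, and 13 of 25 earlier and 20 of 31 later ones at the 4-cell stage. The share of all used bins, or of bins of the same timing class, with these signs was not computed. The sign counts therefore do not show whether the domains differ from other bins of like timing. Correlations across bins are descriptions, and neighbouring bins share states.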

How the data were processed

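Replication states were analysed in 45 siRif1 and 44 siCont morula cells. The deposited values were binary states (0, 1 or none) per 50-kb bin and cell, made by the authors; the submitters' processing notes name GRCm38 and the tools R 4.2.3, Bowtie2 2.5.1, bedtools, Picard and SAMtools. No source used here says how reads became states, and read depth is unknown.

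From these values, replicated shares per bin and group, shifts of centred shares, timing classes from siCont cells of the other stages, order scores and domains were computed with Python 3.11.15, numpy 2.4.6, pandas 2.3.3 and scipy 1.17.1, and the code was tested on simulated data. No significance test was run, since each group is 1 sample. Genes came from RefSeq (GRCm38.p6), and 193 of 194 listed symbols matched.

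Genes named are the 3 longest of the 6 domains with the largest summed shift in each direction (4 after scaling), 2 extreme members of each list and 2 near the median of the lists set by symbol, and Rif1. Lists measured under 80% were counted only. Some genes that this rule names are not reported here. The comparison and the lists were chosen with earlier results of these data known.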

Additional observations from a re-analysis of the deposited data

How the results depend on the processing

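No paired analysis was possible because the replicate numbers in the labels only name cells and no test was run. The number of cells, about 45 a group, limits a single bin's share, and each group is 1 sample, so differences between embryos or batches cannot be told apart from the siRNA. Leaving out each cell in turn kept the difference between the latest and the earliest class between 19.8 and 21.8 points and the difference in SD over bins between -8.87 and -8.05 points. The causes of the changes below were not tested.

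The difference of 20.8 points between classes became 16.2 with classes from siRif1 cells of the other stages, 13.6 with the cells under 60% replicated (29 siRif1, 34 siCont, a setting added after seeing the data), 1.74 as percentile ranks and 0.564 after scaling. Equal weights for 4 S phase windows gave an SD difference of -7.17 points and 403 earlier genes. Cells under 60% gave -5.23 points, 373 earlier genes, 59 earlier domains and an order score difference of -0.0742. The order score difference of -0.0986 was -0.0753 against siRif1 timing and -0.131 against the group's own cells. Scaling left 951 earlier and 1283 later bins, 869 later genes, and 25 earlier and 31 later domains. A threshold of 15 points gave 213 earlier and 233 later domains, and 25 points gave 32 and 23. Limiting cells to 20 to 80% replicated, or to 36 siRif1 and siCont pairs matched within 3 points, left these counts within 1.5 times and the class difference at 21 and 19.2 points.

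Signs of list medians turned in these settings. Scaling gave 5.65 points for primitive endoderm, 1.48 for repair, 1.07 for cell cycle, -7.40 and -3.00 for type 1 and type 2 vomeronasal, 2.80 for defensin, -0.488 for keratin-associated, -0.439 for killer lectin and 0.649 for proteasome genes. Primitive endoderm genes were at 0.0181 with matched pairs, 2.25 at transcription starts (added after seeing the data) and 3.39 with cells under 60%. Keratin-associated genes were at -2.01 with equal windows and -2.07 with cells under 60%, killer lectin genes at -0.0602 with cells under 60%, and cadherin genes at -3.44 with equal windows and -2.70 over gene bodies.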
